A study of Mus musculus with 6 samples.

Results

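Chaperones that fold or assist other proteins in the endoplasmic reticulum (ER), and the transcription factor gene Xbp1, were followed through 6 2-colour cDNA arrays of Neuro-2a cells, a mouse neuroblastoma line. The genes are Hspa5, Hsp90b1, Pdia6, Manf, Dnajb11 and Xbp1, and their spots were taken by gene annotation. The genes themselves were selected on known values, their Z-ratios on these same arrays, so those values are given here as a description and carry no test. They are 6 of 6788 genes named on the array, read by 10 of its 15600 cDNA clones, each spotted 2 times. On every array, RNA of cells transfected with 59Q, a construct of human TBP with a CAG repeat length of 59 fused to GFP, was hybridized together with RNA of cells transfected with N3, the pEGFPN3 vector that expresses GFP without TBP. Both RNAs were taken 60 h after a transient transfection, so each also holds RNA of cells that took up no construct. The 59Q RNA carried Cy5 on replicates 1, 3, 4 and 6 and Cy3 on replicates 2 and 5. All 6 arrays are called replicates, while the series text speaks of 4 biological replicates and of 2 unidentified flip-dye pairs, and the study's methods describe 6 replicates of cultured cells in different batches. Which arrays share a culture is not settled by these, so the spread between arrays may in part be technical.

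Proteins that enter the ER are folded there by resident chaperones, and a load of unfolded protein sets off the unfolded protein response. In that response the sensor Ern1 cuts a short piece out of the Xbp1 messenger, and the resulting XBP1 protein, together with cleaved ATF6, raises transcription of the chaperone genes. The cDNA spots read total RNA of a gene, so the cut and uncut forms of Xbp1 are not told apart in these values. Polyglutamine proteins that aggregate are one of the conditions in which this response has been examined, and the study asked about it in this cell model.

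The value deposited for each spot is a Z-ratio, a score with no fold scale, and it gives no level of a gene in either RNA. For that reason neuroblast markers could not be checked, and genes are compared here only by their difference between 59Q and N3. A value above 0 was taken as higher with 59Q. In the study this score sets 59Q cells against N3 cells, which serve as its control. Its methods do not say how the sign was set on each array, so this direction is not settled. For arrays that shared a dye orientation the correlation of clones (Pearson's r, with clones not being independent of each other) lay between 0.0504 and 0.341, and for arrays of unlike orientation it lay between -0.498 and 0.00182. Results are therefore also given in a Cy5 over Cy3 reading, which turns the sign on replicates 2 and 5, and read as channel 2 over channel 1, with the sign of replicate 1 turned. Replicate 1 is the array with 59Q in channel 1, and replicates 3, 4 and 6 share both dye and channel.

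The promoters of these genes are shown first, because the chaperones are known to share a control element. The ER stress response element, ERSE, is bound by NF-Y at CCAAT and by ATF6 or XBP1 at CCACG, and was searched on both strands as CCAAT, 9 bases of any kind and CCACG. ERSE-II was searched as ATTGG, 1 base of any kind and CCACG. In RefSeq windows of 250 bases before to 50 bases after each gene start (assembly GRCm38.p6), ERSE was found in 0.119% of 32851 windows and ERSE-II in 0.0365%. Counted by gene, ERSE was in 0.137% of all genes with a window. It was in 7 of 82 other ER genes with a window (8.54%), taken from the lists described below. ERSE-II was in 0.0444% of all genes and in 1 of these 82 (1.22%). Among the 6 genes followed here, 5 had a window. Of these 5, Hspa5, Hsp90b1 and Pdia6 held ERSE and Dnajb11 held ERSE-II. Manf had no window. The stretches around the matches are given 5′ to 3′ on the gene's strand, with the letters of the motif in capitals.
Hspa5, ERSE and TATA box, chr2:34772010-34772073, plus strand: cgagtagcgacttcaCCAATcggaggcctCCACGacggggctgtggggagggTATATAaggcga
Hsp90b1, distal ERSE, chr10:86705623-86705671, minus strand: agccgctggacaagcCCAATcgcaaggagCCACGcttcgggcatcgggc
Hsp90b1, proximal ERSE read in reverse, chr10:86705518-86705566, minus strand: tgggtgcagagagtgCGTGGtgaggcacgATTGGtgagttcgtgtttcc
Pdia6, ERSE, chr12:17266476-17266524, plus strand: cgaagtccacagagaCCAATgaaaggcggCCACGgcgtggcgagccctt
Dnajb11, ERSE-II, chr16:22857843-22857871, plus strand: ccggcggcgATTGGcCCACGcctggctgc

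The ERSE of Hspa5 lies 47 to 65 bases before the start, that of Pdia6 80 to 98 bases before it, and those of Hsp90b1 194 to 212 and 89 to 107 bases before it, whereas the ERSE-II of Dnajb11 lies 8 to 18 bases after it. A TATA box, the site that TBP binds, was searched as TATAAA or TATATA and was found in 17.1% of all windows. Of the 5 genes only Hspa5 held one, 23 to 28 bases before the start. CCAAT alone, which every ERSE contains and ERSE-II contains in reverse, was found in 37.4% of windows and in 4 of the 5 genes. The window of Xbp1 held none of these motifs. The element TGACGTGG, at which XBP1 binds in other genes, was in 0.676% of windows and in 0 of the 5. These matches are letters in a window and say nothing on binding in these cells.

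Hspa5 encodes BiP, the main ER chaperone of the Hsp70 family. Its Z-ratio, the mean of 3 clones, was 1.42, -2.68, 3.07, -0.863, -1.32 and -0.481 on replicates 1 to 6. The gene was thus high on replicates 1 and 3 and low on both arrays with 59Q in Cy3. The mean was 0.786 for 59Q in Cy5 (4 arrays) and -2.00 for 59Q in Cy3 (2 arrays), and -0.142 ± 2.06 (SD, n = 6 arrays) over all. Read as Cy5 over Cy3 it was 1.19 ± 1.60 (SD, n = 6), with 4 of 6 arrays above 0. Replicates 4 and 6 were the exceptions, at -0.863 and -0.481 although 59Q was in Cy5.

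The 3 Hspa5 clones lay within 0.429, 0.423, 0.787 and 0.920 of each other on replicates 1, 2, 4 and 5, within 1.47 on replicate 6 and within 5.52 on replicate 3. On replicate 3 the clone at probes 26015 and 26016 stood at 6.70, with its spots at 6.48 and 6.92, whereas the clone at probes 9219 and 9220 was at 1.18 and that at probes 27493 and 27494 at 1.33. With the median of the clones in place of their mean Hspa5 averaged -0.459 ± 1.59 (SD, n = 6). On replicate 6 the clones took both signs, at 0.408, -0.792 and -1.06. All 3 had lower means with 59Q in Cy3 (-2.10, -2.12 and -1.77) than with 59Q in Cy5 (0.552, 1.74 and 0.0697).

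Hsp90b1 encodes GRP94, the ER chaperone of the Hsp90 family. It had Z-ratios of -2.80, -0.960, 0.629, -0.635, -0.670 and -0.322 on replicates 1 to 6. It was below 0 on every array but replicate 3, and replicate 1 was far the lowest. Its mean was -0.792 ± 1.12 (SD, n = 6), with -0.781 for 59Q in Cy5 and -0.815 for 59Q in Cy3. Both clones had this pattern of signs. The clone at probes 25475 and 25476 went down to -3.47 on replicate 1, the third lowest of 15595 clones measured there, and the clone at probes 30675 and 30676 to -2.12. Without replicate 1 the mean of Hsp90b1 was -0.392 ± 0.614 (SD, n = 5).

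Pdia6, a disulphide isomerase of the ER, had Z-ratios of -2.05, -1.23, 0.259, -0.586, -0.227 and -1.92. Again replicate 3 alone lay above 0. The mean was -0.959 ± 0.931 (SD, n = 6), -1.07 with 59Q in Cy5 and -0.731 with 59Q in Cy3. Its 2 clones differed most on replicates 2 and 6. The clone at probes 13533 and 13534 was at -2.21 and -1.0 there, and the clone at probes 29165 and 29166 at -0.258 and -2.83. So the low value of the gene on each of these arrays came mainly from a different clone.

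Manf encodes a small ER protein that binds BiP and is also secreted, where it acts as a neurotrophic factor. Its Z-ratios were -4.92, -1.52, 0.519, -1.02, -0.685 and -1.69, read by 1 clone. On replicate 1 this was the lowest of all 15595 clones, with its spots at -4.79 and -5.05. On replicate 6 the spots were farther apart, at -2.38 and -0.997. The mean was -1.55 ± 1.83 (SD, n = 6), with -1.78 for 59Q in Cy5 and -1.10 for 59Q in Cy3. Without replicate 1 it was -0.877 ± 0.876 (SD, n = 5).

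Dnajb11 is a co-chaperone that delivers unfolded proteins to BiP. Its Z-ratios were -2.17, -0.284, -0.291, -1.10, 0.193 and -0.413 over 1 clone. Replicate 5 alone lay above 0, and replicates 1 and 4 were the lowest. The mean was -0.677 ± 0.840 (SD, n = 6), with -0.992 for 59Q in Cy5 and -0.0458 for 59Q in Cy3. Without replicate 1 it was -0.378 ± 0.463 (SD, n = 5).

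Xbp1 had the sign of Hsp90b1, Pdia6 and Manf on replicates 1, 3, 5 and 6 but not on replicates 2 and 4. Its Z-ratios were -0.417, 1.96, 0.656, 0.738, -0.936 and -0.214 on replicates 1 to 6, so 3 arrays lay above 0 and 3 below. The 2 arrays with 59Q in Cy3 held both its highest and its lowest value. The mean was 0.297 ± 1.04 (SD, n = 6), with 0.191 for 59Q in Cy5 and 0.510 for 59Q in Cy3. Without replicate 2 it was -0.0346 ± 0.718 (SD, n = 5). Over the arrays Pearson's r of Xbp1 was 0.230 with Hsp90b1, 0.105 with Pdia6, 0.258 with Manf, 0.106 with Dnajb11 and -0.268 with Hspa5. In the Cy5 over Cy3 reading these were -0.0181, -0.187, -0.0424, -0.193 and -0.323.

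**Figure D1:**
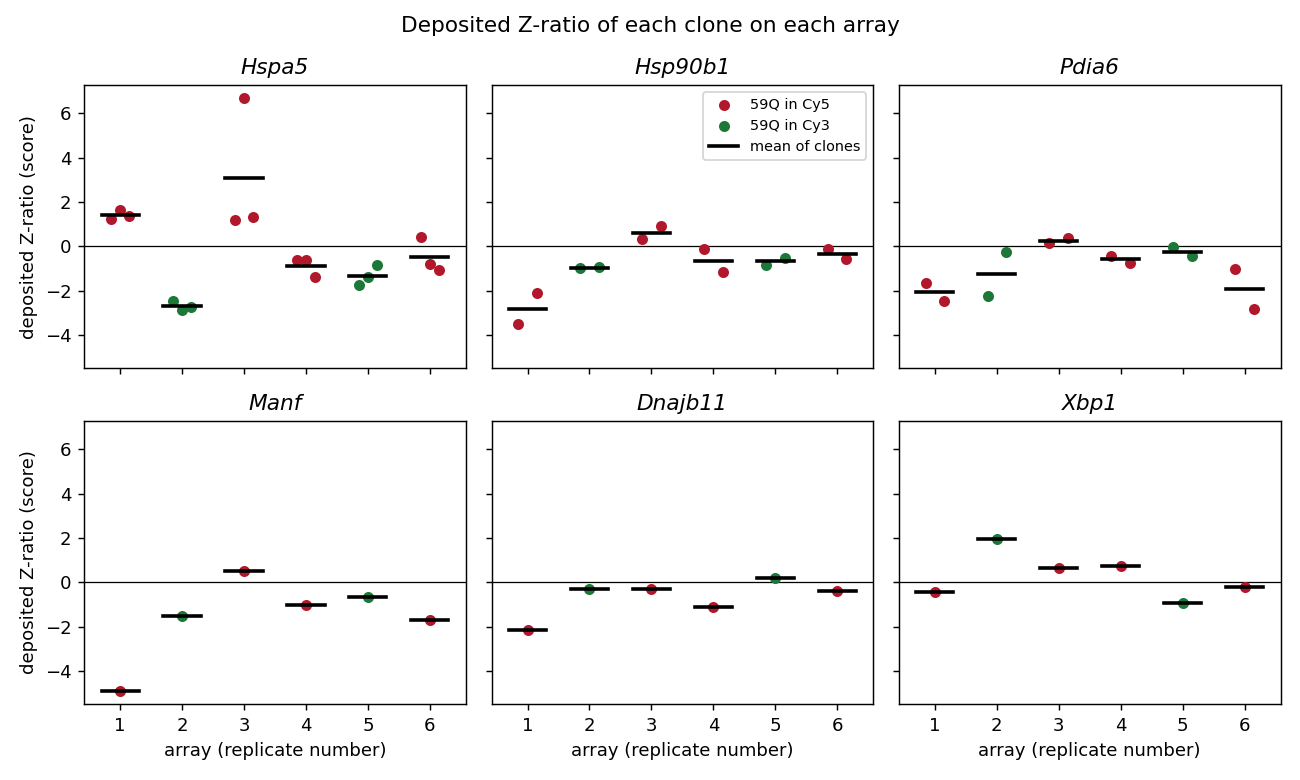
Deposited Z-ratio (score, vertical axis) of every clone (points) and the mean of the clones (bars) on the 6 arrays (horizontal axis), coloured by the dye of the 59Q RNA. The means of Hsp90b1, Pdia6, Manf and Dnajb11 lie below 0 on 5 of 6 arrays each and are lowest on replicate 1. The 2 Pdia6 clones are lowest on replicates 2 (-2.21) and 6 (-2.83). The mean of Hspa5 lies at 1.42 on replicate 1 and at -2.68 on replicate 2.

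The 6 genes thus fell into unlike patterns. Hsp90b1, Pdia6, Manf and Dnajb11, or 4 of the 6, had a value below 0 on at least 5 of 6 arrays, which 10.9% of the 4926 genes measured on all arrays had as well. The same 4 had a mean below 0 in both dye orientations, as 17.8% of those genes did. Hspa5, Hsp90b1, Pdia6 and Manf had values under 0 on replicates 2 and 5 alike, as 16.5% had. These bounds were set after the values had been seen and the genes were chosen with the same values known, so nothing is read from the counts. As gene values, Manf, Hsp90b1, Dnajb11 and Pdia6 held ranks 1, 10, 72 and 104 from the lowest of 6788 genes on replicate 1. On replicate 3 Manf, Hsp90b1 and Pdia6 stood at percentiles 85.5, 88.9 and 76.1 of the 5070 genes measured there. Replicate 3 was the array with the most spots without a value, 11234. Across the 6 arrays Pearson's r of Hsp90b1 was 0.955 with Manf, 0.699 with Pdia6 and 0.770 with Dnajb11, and that of Hspa5 was 0.125 with Hsp90b1, 0.219 with Pdia6, -0.00286 with Manf and -0.335 with Dnajb11. In the Cy5 over Cy3 reading Hspa5 had 0.350, 0.602, 0.381 and 0.330 with the same 4 genes. The arrays of such a pair are shared, and replicate 1 weighs most in the first group.

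The change of sign between the 2 dye means of Hspa5 was also seen in the medians of ribosomal protein genes, which encode abundant transcripts in growing cells. The 69 cytosolic ones on the array had a median of 0.654 where 59Q was in Cy5 and of -1.11 where it was in Cy3. Hspa5 had means of 0.786 and -2.00, though it was at -0.863 and -0.481 on replicates 4 and 6 with 59Q in Cy5. Of genes on all 6 arrays, the 3 most like Hspa5 in their deposited values were Eef2, a translation elongation factor, with r = 0.992, Gja4, a gap junction protein, with r = 0.985, and Srsf2, a splicing factor, with r = 0.978, each over 6 arrays and the highest among 4925 genes. With the sign of replicates 2 and 5 turned their r was 0.909, 0.913 and 0.754. Whether the dye has a part in the values of Hspa5 was not tested. The 3 genes most like Xbp1 were Tmem209 (r = 0.992), Ercc4, a DNA repair nuclease subunit (r = 0.990), and Cinp (r = 0.984), and in the turned reading their r was 0.987, 0.982 and 0.823. For both genes these r were picked as the highest of 4925 over only 6 arrays, so nothing is read from their size.

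**Figure D2:**
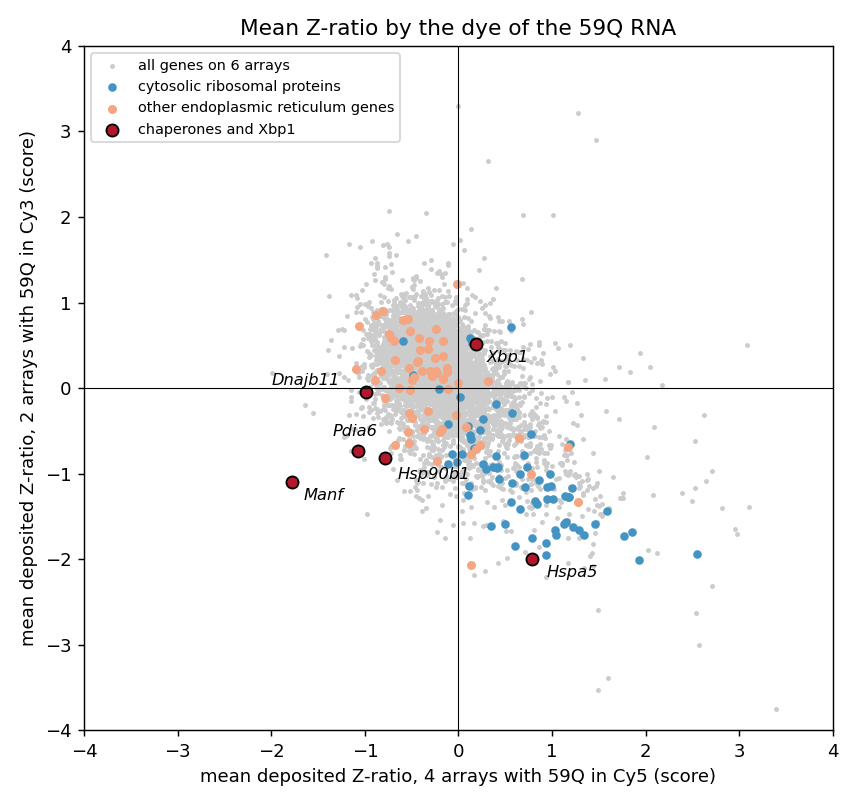
Mean deposited Z-ratio (score) of each gene on the 4 arrays with 59Q in Cy5 (horizontal axis) and on the 2 arrays with 59Q in Cy3 (vertical axis), for the 4926 genes measured on 6 arrays, of which 6 lie outside the axes. Manf, Pdia6 and Hsp90b1 lie in the lower left, below 0 in both, and Hspa5 lies among the ribosomal protein genes in the lower right, at 0.786 and -2.00.

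How the genes are read depends on the sign of the arrays. As deposited the means of all 5 chaperones were below 0 and that of Xbp1 above 0. Read as Cy5 over Cy3 the means of Hsp90b1, Pdia6, Manf and Dnajb11 were -0.249 ± 1.39, -0.472 ± 1.31, -0.817 ± 2.33 and -0.646 ± 0.869, while Hspa5 was at 1.19 and Xbp1 at -0.0430 ± 1.09 (SD, n = 6 for each). Read as channel 2 over channel 1 they were 0.140 ± 1.41, -0.276 ± 1.37, 0.0884 ± 2.49 and 0.0461 ± 1.12, with -0.615 ± 1.95 for Hspa5 and 0.436 ± 0.975 for Xbp1. So Pdia6 alone of the 6 kept its sign in these 3 readings. Except for Pdia6 as deposited, each of these means lay within 1 SD of 0. On replicates 3, 4 and 6, which run the same way in each reading, the means of Hspa5, Hsp90b1, Pdia6, Manf, Dnajb11 and Xbp1 were 0.575, -0.109, -0.748, -0.729, -0.600 and 0.393, and Dnajb11 alone had 1 sign on the 3 arrays.

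**Figure D3:**
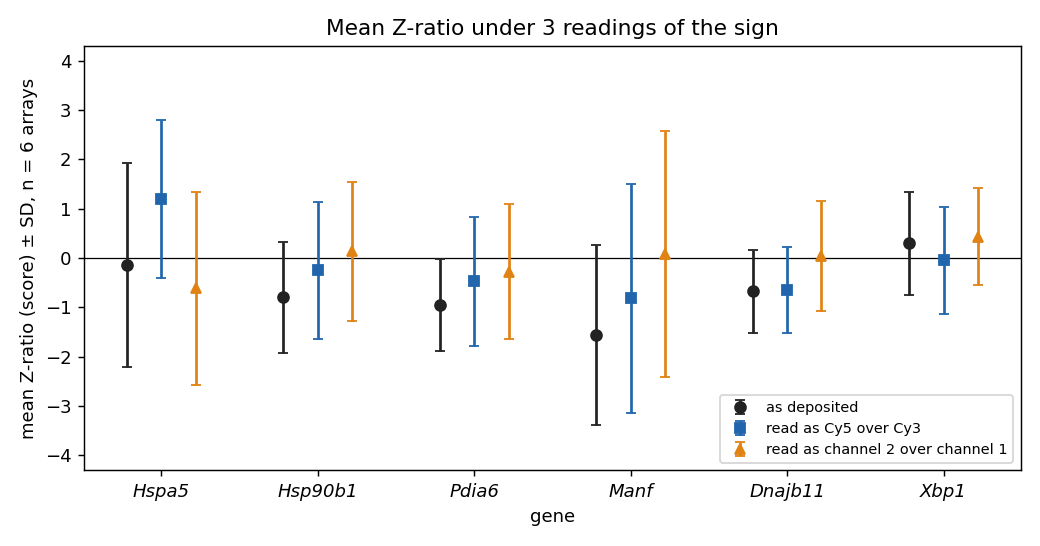
Mean Z-ratio (score, vertical axis) of each gene over 6 arrays, with bars of 1 SD, as deposited (circles), read as Cy5 over Cy3 (squares) and read as channel 2 over channel 1 (triangles). The mean of Manf moves from -1.55 to -0.817 and 0.0884, and that of Hspa5 from -0.142 to 1.19 and -0.615.

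Over all 6463 genes measured on at least 4 arrays, limma called 0% above 0 and 0% below 0 at an adjusted p under 0.05 as deposited, with 169 genes at an unadjusted p under 0.05, and so 0 of the 6 genes. Read as Cy5 over Cy3, 0.263% were called above 0 and 0.0155% below 0, again 0 of the 6. The coefficient of a dye term, which measures how the values differ between the dye orientations, was called above or below 0 for 0% of genes, with 1041 at an unadjusted p under 0.05. A count of 0 does not show that the genes were alike in both transfections.

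The rest of the ER machinery was taken as 6 lists of 97 genes, of which 67 were tested, none of them among the 6 above. As deposited 52 lay below 0 and 15 above, with a median Z-ratio of -0.133, beside -0.0449 and 56.9% below 0 over all genes tested. The share below 0 was 77.6% for these lists. Read as Cy5 over Cy3 it was 76.1%, beside 65.4% over all genes, and read as channel 2 over channel 1 it was 41.8%, beside 44.9%. In limma 0 of the 67 were called as deposited (1 at an unadjusted p under 0.05) and 0 read as Cy5 over Cy3. As deposited their means ran from -0.673 to 0.577. The ER lists were chosen with earlier results of these data known, so nothing is read from these shares. The counts of each list are given as deposited and then in the other readings, and the shares over all genes stand above.

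Among sensors and transcription factors of the response, 3 of 10 lay above 0 and 7 below, with 7 below as Cy5 over Cy3 and 7 as channel 2 over channel 1. Mbtps2, a protease that frees ATF6, averaged 0.577 ± 0.663 (SD, n = 5; limma adjusted p = 0.999), and Creb3, an ER-bound factor, averaged -0.489 ± 0.643 (SD, n = 6; limma adjusted p = 0.999). Of the other chaperones 5 of 10 lay above 0 and 5 below, with 5 and 2 below in these readings. Cnpy2 averaged -0.659 ± 0.879 and Calr, the lectin chaperone calreticulin, -0.599 ± 1.40 (SD, n = 6; limma adjusted p = 0.999 for both). Calr was at -3.0 and -1.14 on replicates 2 and 5 and averaged 0.137 on the others.

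Of 8 disulphide enzymes 2 lay above 0 and 6 below, with 7 below as Cy5 over Cy3 and 4 as channel 2 over channel 1. P4hb, the classical protein disulphide isomerase, averaged -0.448 ± 0.440 and was below 0 on every array but replicate 3, and Txndc12 averaged 0.392 ± 0.727 (SD, n = 6; limma adjusted p = 0.999 for both). Of 21 genes of translocation and glycosylation 3 lay above 0 and 18 below, with 18 below as Cy5 over Cy3 but 6 as channel 2 over channel 1. Sec61g, a subunit of the translocation channel, averaged -0.559 ± 0.645 and Srp68, of the signal recognition particle, -0.426 ± 0.518 (SD, n = 6; limma adjusted p = 0.999 for both).

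Of 10 genes of ER-associated degradation 1 lay above 0 and 9 below, with 9 below as Cy5 over Cy3 and 6 as channel 2 over channel 1. Ube2g2, a ubiquitin-conjugating enzyme, averaged -0.673 ± 0.821 and Selenos -0.534 ± 0.830 (SD, n = 6; limma adjusted p = 0.999 for both). Of 8 genes of the later stress output 1 lay above 0 and 7 below, with 5 below as Cy5 over Cy3 and 3 as channel 2 over channel 1. Atf3 averaged -0.560 ± 0.957 and Ppp1r15a, which restores translation after stress, -0.276 ± 0.494 (SD, n = 6; limma adjusted p = 0.999 for both). On replicate 1, where 4 of the 6 genes were lowest as means of their clones, 49 of the 67 lay below 0. That was 73.1%, beside 60.0% of all genes tested. Their median there was -0.480, beside -0.173 over all genes tested. Selenos was at -2.02 on that array, Cnpy2 at -2.05 and Atf3 at -2.34, whereas Sil1 was at 2.86, Atf6b at 2.70 and Mbtps2 at 1.47.

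**Figure D4:**
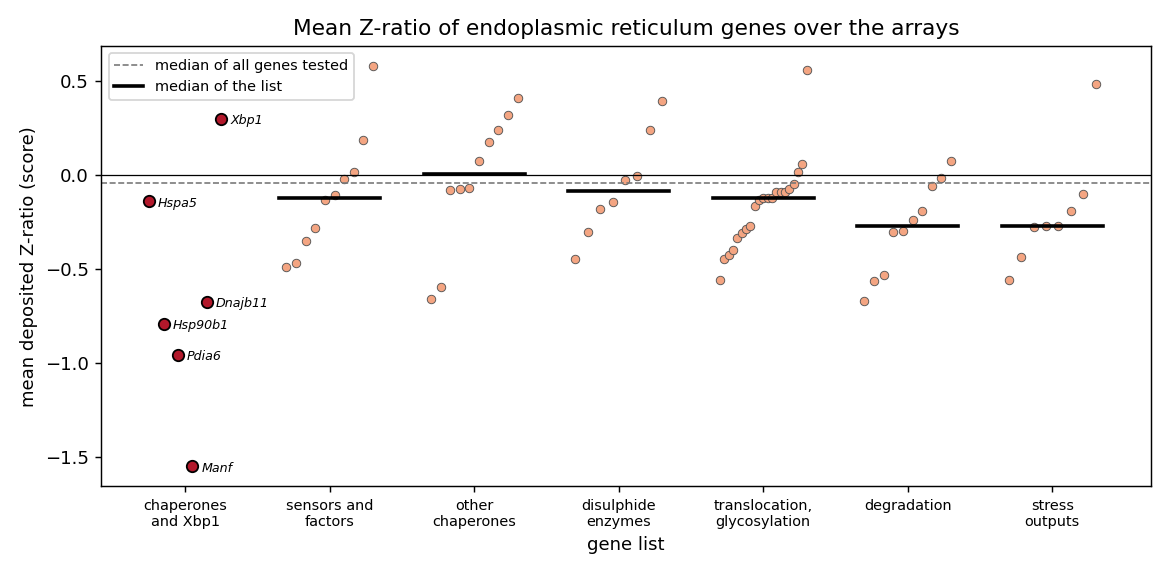
Mean deposited Z-ratio (score, vertical axis) of the 6 genes and of the tested genes of 6 lists of the ER machinery (points), with the median of each list (black bars) and the median of all genes tested (dashed line, -0.0449). The list medians run from -0.274 to 0.00238 as deposited, and the means of the 6 genes from -1.55 to 0.297.

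Genes with the same motifs were then looked at in the whole table. Beside the 6 genes, 9 tested genes held ERSE in a window, among them Calr, Canx and Dnajc3. Their median was 0.0276, with 4 below 0. For 5 tested genes with ERSE-II it was -0.0745, with 3 below 0. Over 5219 tested genes with a window it was -0.0461, with 57.4% below 0, and over 569 with a TATA box it was -0.0438, with 57.3% below 0. In limma 0 of these genes were called as deposited, as of all genes tested. Read as Cy5 over Cy3 the medians were 0.209 for ERSE, -0.108 for ERSE-II, -0.129 for a TATA box and -0.164 for any window. In that reading limma called 0 genes with ERSE, 0 with ERSE-II, 2 with a TATA box and 15 with any window.

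A list of interferon-induced genes was set beside the ER genes. All 5 tested lay above 0 as deposited, with a median of 1.13. In limma 0 were called, with 4 at an unadjusted p under 0.05, beside 169 of 6463 over all genes. This list was chosen with earlier results of these data known, so nothing is read from its counts. Bst2 averaged 1.95 ± 1.08 and Ifitm3 1.92 ± 1.59 (SD, n = 6; limma adjusted p = 0.999 for both). Read as Cy5 over Cy3 the median was -0.218, with 3 of 5 below 0. Read as channel 2 over channel 1 it was 1.07, with 0 of 5 below 0. Whether the interferon genes have a part in the values of the ER genes was not tested.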

How the data were processed

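Total RNA of 59Q and N3 transfected Neuro-2a cells was labelled by tyramide signal amplification and hybridized onto 6 mouse cDNA arrays. The authors read the slides with GenePix Pro and deposited a Z-ratio per spot, a score of mean 0 and SD 1 on each array, after Z score transformation. No source used here gives tool versions or spot filters. Spots without a value numbered from 19 on replicate 1 to 11234 on replicate 3. Precision is limited by having 6 arrays.

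Neighbouring spots were averaged into 15600 clones and the clones of a gene into its value. Of 31200 spots 18384 have 1 gene symbol, 514 several and 12302 are unnamed here. Entrez IDs matched a gene table (GRCm38.p6) for 18172 spots. Genes on at least 4 arrays were fitted in limma 3.58.1 (R 4.3.3) with an intercept, or with a dye term, on the Z-ratio, with Benjamini-Hochberg adjustment over all genes. The fits were also run on simulated data with independent noise on each array. That noise lacks the correlations between arrays seen here, so those runs do not vouch for the fits on these values. The genes and lists were chosen with earlier results of these data known. Named are the 6 genes, up to 2 genes per fixed list with the smallest p, and the 3 genes most correlated with Hspa5 and with Xbp1. Canx and Dnajc3 are named for their motif, and Sil1 and Atf6b for their values on replicate 1. The motifs were chosen after the values were seen. Alternatives are listed in the closing section.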

Additional observations from a re-analysis of the deposited data

Results flagged for a closer look

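Of 32 sets of 6 array values, for the 6 genes, the clones of Hspa5, Hsp90b1 and Pdia6, and the named list genes and most similar genes measured on all arrays, 3 had 1 array standing apart from the others by Dixon's criterion, which chance meets in about 1 of 20 such sets. The Hsp90b1 clone at probes 25475 and 25476 had -3.47 on replicate 1, against -0.988 on the next lowest array, and Hsp90b1 as a gene did not meet the criterion. Srp68 had 0.572 on replicate 5, against -0.345 on the next highest. Bst2 had 4.06 on replicate 2, against 1.82 on the next highest.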

How the results depend on the processing

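The means of the 6 genes moved by less than 1 SD between arrays under each alternative tried, a bound that lets a mean change sign. The mean of Hspa5 turned above 0 without replicate 2, 4 or 5, with 59Q in Cy5 only (0.786) and on replicates 3, 4 and 6 alone (0.575). That of Xbp1 turned below 0 without replicate 2. Hspa5 and Xbp1 also changed sign read as Cy5 over Cy3, and Hsp90b1, Manf and Dnajb11 read as channel 2 over channel 1. Leaving out 1 replicate gave means of -0.785 to 0.365 for Hspa5, -1.08 to -0.392 for Hsp90b1, -1.20 to -0.741 for Pdia6, -1.96 to -0.877 for Manf, -0.851 to -0.378 for Dnajb11 and -0.0346 to 0.544 for Xbp1, the highest value for Hspa5 without replicate 2 and the lowest without replicate 3. Quantile normalization moved Manf to -2.31 and Hsp90b1 to -1.13, and a dye term moved Hspa5 to -0.606. Centring, limiting values to between -5 and 5 and using only clones with both spots measured kept every sign. Counts of calls in limma were 0 above and 0 below 0 as deposited. Read as Cy5 over Cy3 they were 17 genes above and 1 below, and 272 clones above and 7 below, and on replicates 3, 4 and 6 alone 4 clones were above. The causes were not tested. The fixed lists had 0 calls in each alternative, and the median of the other chaperones was 0.222 on replicates 3, 4 and 6 alone. No paired analysis was possible because the arrays form 1 group and their flip-dye pairs are not identified; each Z-ratio already compares both RNAs within an array. Values of 1 array cannot separate dye, channel and transfection.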
